A study of Mus musculus with 24 samples.

Results

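Benzo[a]pyrene (BP), a polycyclic aromatic hydrocarbon of smoke and soot, was given to mice without Cyp1a1, and gene expression in their bone marrow was measured 12 h later. The comparison rests on 6 of the 24 arrays of the series, namely the 3 that the labels assign to Cyp1a1-null marrow after BP and the 3 that they assign to Cyp1a1-null marrow after oil. The mice were female C57BL/6j aged 6 weeks and had been injected intraperitoneally with olive oil or with BP, with 50 mg/kg given in the labels for all treatments. No time of collection is given for the oil groups. Both groups lacked Cyp1a1, so the comparison describes BP in animals without this enzyme and not the loss of the enzyme. Other arrays were used to place the values. These were double-null marrow, without Cyp1b1 and Cyp1a1, after oil (1 array) and 12 h after BP (2 arrays), wild-type marrow after oil (2 of 3 arrays) and 6 h after BP (2 arrays), and Cyp1b1-null marrow after oil (2 arrays). Each sample was a pool of 9 per the labels, which do not say what was pooled or whether the replicates were separate pools, so p-values measure only the spread between these samples, which may be technical. The RNA was from whole marrow, in which more cells of a type and more RNA per cell cannot be told apart.

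BP enters cells and binds the aryl hydrocarbon receptor (AhR), a ligand-activated transcription factor that pairs with ARNT in the nucleus and binds DNA at the core sequence GCGTG. Its best known targets are Cyp1a1 and Cyp1b1, which encode P450 enzymes that oxidise BP itself, and Ahrr, which encodes a repressor that competes with the receptor. CYP1A1 takes part both in clearing BP and in forming reactive metabolites from it, and in marrow such metabolites are known to harm lymphoid and other blood-forming cells. Marrow macrophages are phagocytes that surround developing red cells and clear debris, and they and their monocyte precursors carry AhR.

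Every array set a sample in Cy3 against 1 common reference in Cy5, made of pooled wild-type marrow after oil, without a dye swap. A level is given here as the log ratio log2(Cy3/Cy5) of an array, and a change as the difference of 2 such levels on the log2 scale. Probes well above background in Cy3 made up 61.9% to 82.9% of the 6 arrays. The 3 oil arrays and BP replicate 3 shared a slide. BP replicates 1 and 2 lay on another slide, scanned on another scanner model and read with an older version of Feature Extraction, together with the 2 Cyp1b1-null oil arrays. Over genes, which do not replicate one another, pairs of these 6 arrays that shared a slide correlated in log ratio at r from 0.638 to 0.881 (7 pairs), and those on different slides at 0.216 to 0.344 (8 pairs). BP replicates 1 and 2 correlated with the Cyp1b1-null oil arrays of their slide at 0.769 to 0.781 (4 pairs), and thus more closely than with BP replicate 3. The model therefore held slide as a random block (correlation 0.587), and values within a slide are given beside the changes. The number of arrays limits the precision.

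**Figure D1:**
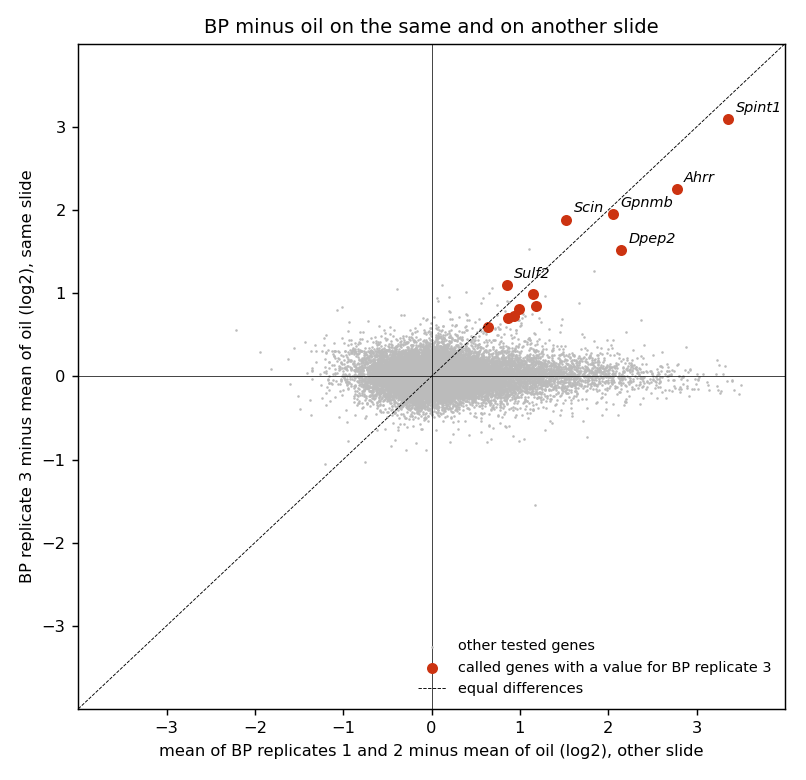
Each grey point is a tested gene, with the difference between the mean of BP replicates 1 and 2 and the mean of the 3 oil arrays, on another slide (horizontal axis, log2), and the difference between BP replicate 3 and the same oil mean, on the same slide (vertical axis, log2). Red points are the called genes with a value on BP replicate 3, and the dashed line marks equal differences. The cloud is wide along the horizontal axis (standard deviation 0.567) and narrow along the vertical (0.169), while the called genes lie near the dashed line. The calls were made from these same arrays.

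The plot of the 2 differences shows how unequal they were. Between slides, 1899 of 22008 genes had an absolute difference above 1. On the shared slide 16 of 21952 genes did, and they included Spint1, Ahrr, Gpnmb, Scin, Dpep2 and Sulf2.

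Cyp1a1 (chromosome 9), the deleted gene, was not well above background on any of the 6 arrays. Its log ratios were -0.20, -0.13 and -0.13 after oil and -0.07, 0.00 and 0.11 after BP. On the 3 double-null arrays it was not well above background either. In wild-type marrow at 6 h both BP arrays registered it well above background, at 1.71 and 1.94, so the probe can register the transcript. Cyp1a1 was thus below the filter and was not tested, and whether its probe lies in the deleted part is not given in the labels.

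Few genes passed the test for a BP response in Cyp1a1-null marrow at this time. Of 22008 genes tested, limma with Benjamini-Hochberg adjustment called 13 higher after BP at an adjusted p under 0.05, or 0.0591%, and 0 lower. The 13 were the AhR repressor Ahrr, the protease inhibitor genes Spint1 and Serpinb10, the macrophage surface genes Gpnmb, Msr1 and Adgre1, the enzyme genes Dpep2, Sulf2 and Tph1, and Il6st, Scin, Arl4c and Rcbtb2. At an unadjusted p under 0.05 there were 495 higher and 298 lower genes, and the lowest adjusted p of a lower gene was 0.058. All 3 BP arrays lay above all 3 oil arrays for 1969 of 21922 genes (8.98%) and below them for 1291 (5.89%). The number of calls depended on the arrays. Leaving out BP replicate 3, which links the slides, gave 3274 calls at a slide correlation of 0.356, and leaving out oil replicate 3 gave 8, of which 7 were among the 13.

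**Figure D2:**
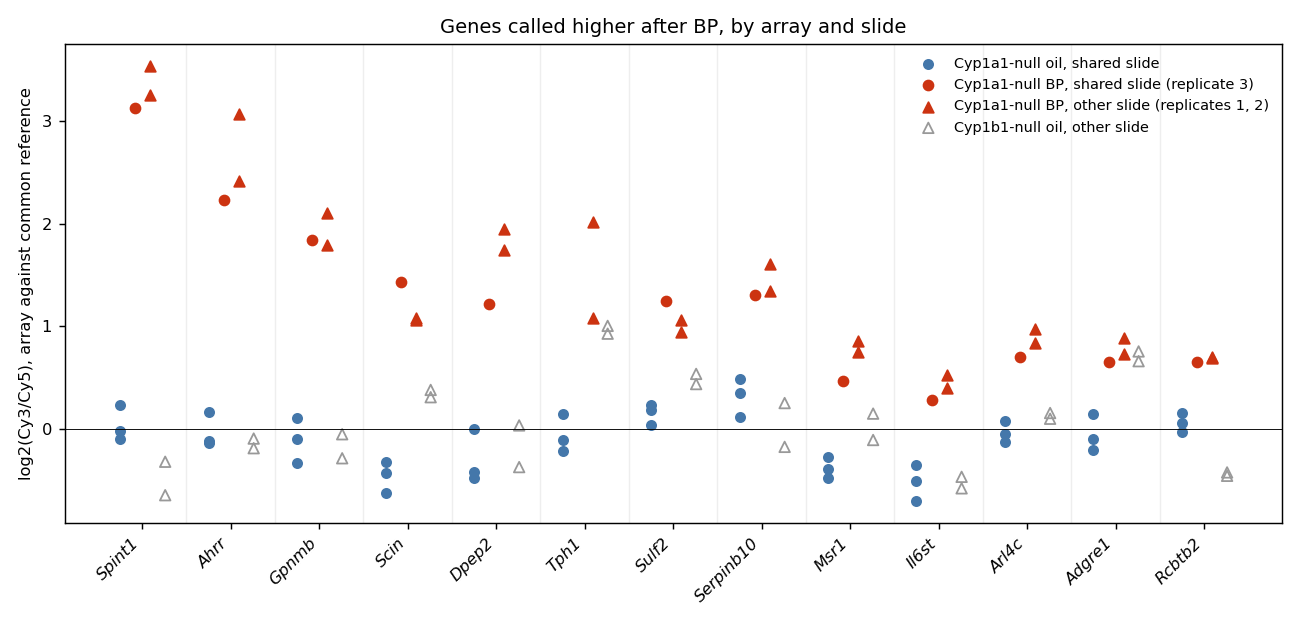
Log ratio to the common reference (vertical axis, log2) of the 13 called genes on each Cyp1a1-null array and on the Cyp1b1-null oil arrays, with genes ordered by fitted change. Circles are arrays of the slide that holds the oil arrays, triangles arrays of the other slide, red BP and blue or grey oil. Red points lie above the blue points of the same gene throughout, and for Adgre1 they lie level with the grey ones.

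Ahrr and Spint1 carried the largest changes of the genes listed as the AhR battery. This list was drawn up with earlier results on these arrays known, so the place of Spint1 on it is no separate support. Ahrr (chr13:74211118-74292331, minus strand; RefSeq coordinates here are of GRCm38.p6) encodes the repressor that closes the feedback loop of AhR. Its log ratios were 0.16, -0.14 and -0.12 after oil and 2.42, 3.07 and 2.23 after BP. The groups did not overlap, and BP replicate 3 lay 2.26 above the oil arrays of its slide. The fitted rise was 2.38 ± 0.31 (SE; limma adjusted p = 0.00253). Spint1 (chr2:119237360-119249535, plus strand) encodes a Kunitz-type inhibitor of serine proteases at epithelial and other cell surfaces. It stood at -0.03, -0.10 and 0.24 after oil and at 3.25, 3.54 and 3.13 after BP. The rise of 3.16 ± 0.38 (adjusted p = 0.00221, limma) was the largest of any tested gene, and its other probe above background gave 2.50. On the other slide BP replicates 1 and 2 lay 3.88 above the Cyp1b1-null oil arrays for Spint1 and 2.89 for Ahrr. That slide held no Cyp1a1-null oil array, so these differences include the difference in genotype.

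Promoters of called genes were searched for the AhR core motif, GCGTG on either strand, in the 250 bases before the annotated start (RefSeq, GRCm38.p6). A window was found for 10 of the 13 genes, and Dpep2, Msr1 and Adgre1 had none. The genes had 13 windows in all, since some have more than 1 annotated start. The motif was in 6 of the 13 windows, each of another gene, against 28.2% of all 32851 windows of this length, and the longer form TNGCGTG, which holds the core, was in 1 of them, that of Ahrr, against 4.1%. The share among called genes is a description and was not tested. The windows of Ahrr, Spint1, Scin, Arl4c and Tph1 are shown because they hold the core, and that of Gpnmb because it does not, although Gpnmb rose as well. Capitals mark the core or its reverse complement CACGC, and each sequence runs 5′ to 3′ along the gene's strand and ends at the base before the start.
The windows are chr13:74292332-74292581 for Ahrr (minus strand), chr2:119237110-119237359 for Spint1 (plus strand), chr12:40134229-40134478 for Scin (minus strand). The others are chr1:88702192-88702441 for Arl4c (minus strand), chr7:46672538-46672787 for Tph1 (minus strand) and chr6:49036268-49036517 for Gpnmb (plus strand).
Ahrr: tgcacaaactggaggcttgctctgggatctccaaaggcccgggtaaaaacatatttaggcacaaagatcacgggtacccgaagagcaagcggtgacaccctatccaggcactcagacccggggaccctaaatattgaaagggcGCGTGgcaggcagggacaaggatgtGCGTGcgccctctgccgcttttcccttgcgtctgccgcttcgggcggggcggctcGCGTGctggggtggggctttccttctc
Spint1: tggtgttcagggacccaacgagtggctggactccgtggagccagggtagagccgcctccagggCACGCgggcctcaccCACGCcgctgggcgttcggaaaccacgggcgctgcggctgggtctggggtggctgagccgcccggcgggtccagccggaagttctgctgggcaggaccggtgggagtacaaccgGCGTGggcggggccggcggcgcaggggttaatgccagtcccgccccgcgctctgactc
Scin: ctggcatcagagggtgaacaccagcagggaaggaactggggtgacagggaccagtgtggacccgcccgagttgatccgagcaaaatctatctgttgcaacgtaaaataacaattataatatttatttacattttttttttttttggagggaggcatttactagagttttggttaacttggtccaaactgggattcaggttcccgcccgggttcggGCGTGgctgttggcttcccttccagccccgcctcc
Arl4c: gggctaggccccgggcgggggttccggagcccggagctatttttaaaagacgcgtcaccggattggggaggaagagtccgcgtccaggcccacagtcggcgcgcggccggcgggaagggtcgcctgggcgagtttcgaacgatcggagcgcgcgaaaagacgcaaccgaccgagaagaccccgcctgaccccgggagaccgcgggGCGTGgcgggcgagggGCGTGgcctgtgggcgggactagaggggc
Tph1: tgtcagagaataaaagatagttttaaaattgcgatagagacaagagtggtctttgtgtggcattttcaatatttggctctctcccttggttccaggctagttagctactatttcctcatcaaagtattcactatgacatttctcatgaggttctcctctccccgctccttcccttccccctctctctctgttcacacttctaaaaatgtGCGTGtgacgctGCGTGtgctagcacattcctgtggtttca
Gpnmb: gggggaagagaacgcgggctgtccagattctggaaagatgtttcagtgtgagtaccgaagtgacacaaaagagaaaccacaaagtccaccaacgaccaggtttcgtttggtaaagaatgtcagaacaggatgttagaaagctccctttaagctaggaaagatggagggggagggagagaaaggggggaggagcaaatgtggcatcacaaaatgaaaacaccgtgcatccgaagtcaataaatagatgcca

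The window of Ahrr held 3 cores on the gene's own strand, beginning 107, 82 and 27 bases before the start. That of Spint1 held 1 on its own strand and 2 on the other, at 187, 172 and 58 bases. Scin had 1 (35 bases), Arl4c 2 (45 and 29 bases) and Tph1 2 (41 and 29 bases). The second annotated start of Sulf2 also had 2. A match shows only that these letters are present, and no binding was measured.

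The other genes of the battery list moved less or not at all. Of 21 genes on the battery list, drawn up with earlier results on these arrays known, 19 were tested. Of these 2 were called higher and 0 lower, 12 had a change above 0 and the median was 0.03, the same as over all genes tested (0.03). In 7 of the 19 all BP arrays lay above all oil arrays, against 8.98% of all genes. Nqo1, the quinone reductase, stood at -0.11, 0.04 and -0.07 after oil and at 0.51, 0.48 and 0.65 after BP. These did not overlap, but the difference of 0.66 ± 0.14 did not pass (adjusted p = 0.169, limma). Tiparp, which encodes an ADP-ribosyltransferase that restrains AhR, stood at 0.19, 0.13 and 0.11 after oil and 0.54, 0.55 and 0.82 after BP. Its difference was 0.62 ± 0.16 (limma adjusted p = 0.409). Ugt1a6b, a glucuronosyltransferase gene, gave 0.84 ± 0.23 with an adjusted p of 0.514 by limma. Against the Cyp1b1-null oil arrays of the same slide its BP replicates 1 and 2 differed by -0.04. The receptor gene Ahr itself was at 0.19 ± 0.18 and its partner Arnt at -0.27 ± 0.18, each with limma adjusted p = 0.999.

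Cyp1b1, the P450 gene that remained intact in these mice, was not called. On its brightest probe it stood at -0.28, -0.02 and -0.21 after oil and 0.24, 0.79 and 0.90 after BP, and was well above background on 2 of 3 oil arrays and on all 3 BP arrays. The difference was 0.98 ± 0.21 (limma adjusted p = 0.157), without overlap. The other probe of Cyp1b1 went the opposite way, from 0.29, -0.09 and 0.18 after oil to -0.43, 0.02 and -0.27 after BP, a difference of -0.35. The brightest probe also gave 0.51 and 1.08 on the Cyp1b1-null oil arrays and 1.57, 1.57 and 1.11 on the double-null arrays, which are labelled as lacking the gene. The probe values therefore did not follow the Cyp1b1 genotype, and no level of Cyp1b1 is drawn from them.

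**Figure D3:**
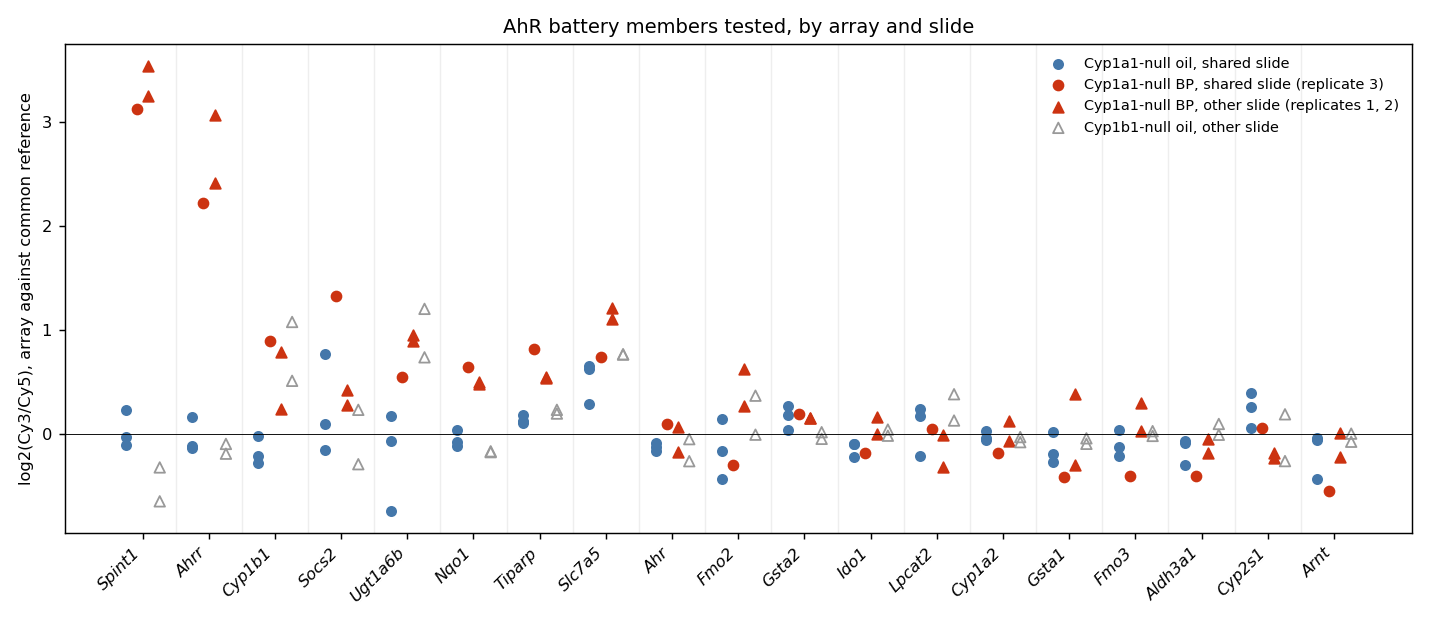
Log ratio to the common reference (vertical axis, log2) of the 19 tested members of the AhR battery on each Cyp1a1-null array and on the Cyp1b1-null oil arrays, with symbols as for the called genes and members ordered by fitted change. Spint1 and Ahrr stand above 2 on every BP array, and no other member does on any.

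The macrophage surface genes called higher were Gpnmb, Msr1 and Adgre1. Gpnmb (chr6:49036518-49058182), which encodes a transmembrane glycoprotein of lysosome-rich macrophages and osteoclasts, was at -0.33, -0.10 and 0.10 after oil and at 1.79, 2.10 and 1.84 after BP. The BP arrays of the 2 slides were close together, and the rise was 1.98 ± 0.27 (adjusted p = 0.00355, limma). Msr1 (chr8:39543232-39642750), the class A scavenger receptor that takes up modified lipoproteins and bacteria, moved from -0.47, -0.39 and -0.28 to 0.75, 0.86 and 0.47. Its rise was 0.92 ± 0.14 (adjusted p = 0.0114, limma), with 0.88 and 0.89 on 2 further probes. Adgre1 (chr17:57358581-57483529), which encodes the macrophage marker F4/80, moved from 0.15, -0.21 and -0.10 to 0.89, 0.73 and 0.65. The fitted rise was 0.74 ± 0.13 (adjusted p = 0.0401, limma) and 0.71 on the shared slide, but its other probe above background gave 0.08. The Cyp1b1-null oil arrays, however, were already at 0.66 and 0.76 for Adgre1, so BP replicates 1 and 2 differed from them by 0.10. For Gpnmb and Msr1 these differences on the other slide were 2.11 and 0.78.

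The list of monocyte and macrophage genes held the only called members among the cell type lists. All 29 of its genes were tested, and 3 rose and 0 fell, namely Gpnmb, Msr1 and Adgre1. The median difference was 0.34, against 0.03 over all genes, and 24 of 29 were above 0. All BP arrays lay above all oil arrays in 12, against 8.98% of all genes, and 0.0591% of all genes were called higher. Fcgr1, the high-affinity IgG receptor, gave 0.79 (adjusted p = 0.176), the adhesion molecule Vcam1 0.70 (0.519), the lysosomal glycoprotein Cd68 0.42 (0.607), and the haemoglobin scavenger receptor Cd163 0.75 (0.999), all by limma. The complement genes C1qa, C1qb and C1qc gave 0.45, 0.51 and 0.62, none of them called. Monocyte genes of the list were on both sides of 0 and not called, with 0.54 for F13a1, 0.37 for Ms4a6d, 0.25 for Ccr2, 0.08 for Ly6c1, -0.19 for Cx3cr1 and -0.36 for Ly6c2. The lysozyme genes Lyz2 and Lyz1 were at 0.14 and -0.64.

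The slides gave this list different values. On the shared slide its median was 0.36, and between BP replicates 1 and 2 and the oil arrays it was 0.31. Between BP replicates 1 and 2 and the Cyp1b1-null oil arrays on their own slide the median was -0.01, and the list as a whole stood no higher. For Fcgr1 that last difference was -0.18. The mean log ratio of the list lay between 0.24 and 0.29 on the oil arrays and between 0.58 and 0.64 on the BP arrays. The summed Cy3 signal of its members lay between 213527 and 243521 after oil and between 193378 and 218850 after BP. The groups did not overlap in the mean log ratio and did in the summed signal, and the part that a different share of macrophages has in the called genes was not tested.

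Of the other called genes, Dpep2, Sulf2 and Tph1 encode enzymes and Serpinb10 a protease inhibitor. Dpep2 (chr8:105984945-106006026) encodes a membrane dipeptidase that acts on leukotriene D4 and related peptides. It stood at -0.48, 0.00 and -0.42 after oil and 1.74, 1.95 and 1.22 after BP, a rise of 1.66 ± 0.21 (adjusted p = 0.00221, limma) and of 1.52 on the shared slide. Sulf2 (chr2:166073899-166155683), a sulfatase that trims heparan sulfate outside the cell, moved from 0.19, 0.23 and 0.04 to 0.95, 1.06 and 1.25. The rise was 1.04 ± 0.14 (adjusted p = 0.00253, limma), 1.10 on the shared slide and 0.52 against the Cyp1b1-null oil arrays on the other, and its other probe gave 0.64. Serpinb10 (chr1:107528994-107560742) encodes an intracellular serpin of myeloid cells and moved from 0.12, 0.49 and 0.35 to 1.34, 1.60 and 1.31. It rose by 1.03 ± 0.15 (adjusted p = 0.00734, limma), but its other probe gave 0.13.

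Tph1 (chr7:46644641-46672537), which encodes the tryptophan hydroxylase that starts serotonin synthesis outside the brain, rests on the least data of the 13. It was at 0.14, -0.22 and -0.11 after oil and at 2.02 and 1.09 on BP replicates 1 and 2. Its spot on BP replicate 3 was marked as an outlier and left out, so no value from the shared slide exists. The fitted rise was 1.61 ± 0.27 (adjusted p = 0.0273, limma). The Cyp1b1-null oil arrays on the slide of these BP replicates stood at 1.00 and 0.93, which left a difference of 0.59. The part of the slide in the rise of Tph1 was not tested.

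The remaining called genes act in signalling and in the cytoskeleton. Scin (chr12:40059769-40134228) encodes scinderin, a calcium-dependent protein that severs actin filaments. It was at -0.43, -0.32 and -0.62 after oil and 1.06, 1.08 and 1.43 after BP, with a rise of 1.80 ± 0.29 (adjusted p = 0.0164, limma) that was 1.89 on the shared slide and 0.72 against the Cyp1b1-null oil arrays on the other. Il6st (chr13:112464070-112506860), which encodes gp130, the signalling subunit shared by the receptors of the interleukin-6 family, moved from -0.36, -0.51 and -0.71 to 0.40, 0.53 and 0.28, a rise of 0.85 ± 0.15 (adjusted p = 0.0392, limma). Arl4c (chr1:88698225-88702191) encodes a small GTPase of the ARF-like family and moved from -0.12, 0.08 and -0.05 to 0.84, 0.97 and 0.70. It rose by 0.78 ± 0.13 (adjusted p = 0.0252, limma), and its other probe gave 0.57. Rcbtb2 (chr14:73138745-73184055), a gene of the RCC1 and BTB domain family, moved from 0.16, 0.06 and -0.03 to 0.70, 0.69 and 0.65, a rise of 0.60 ± 0.11 (adjusted p = 0.0416, limma). Of its 4 other probes above background, 3 went the same way, with values from -0.04 to 0.61. In each of these 4 genes the BP and oil arrays did not overlap.

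Of the 13 calls 6 were lost when a single array was left out. Without oil replicate 3 the limma adjusted p was 0.17 for Adgre1, Il6st and Rcbtb2, 0.111 for Tph1, 0.104 for Arl4c and 0.0987 for Scin. Without oil replicate 2 it was 0.146 for Adgre1, 0.114 for Rcbtb2, 0.108 for Il6st and 0.0996 for Tph1, and without oil replicate 1 it was 0.083 for Arl4c. Without BP replicate 1 it was 0.0533 for Adgre1 and 0.0589 for Rcbtb2. Spint1, Dpep2, Sulf2, Ahrr, Gpnmb, Serpinb10 and Msr1 kept their calls whichever of the 6 arrays was left out. Without BP replicate 3 all BP and oil arrays lie on different slides, and all 13 were among 3274 calls, so that setting is no check of a call. With slide as a fixed term limma called 12 genes, all higher, of which 7 were among the 13. Spint1, Ahrr, Gpnmb, Scin, Dpep2 and Sulf2 kept their calls. Tph1 was called too, but it has no value on BP replicate 3. Its estimate of 1.61 was the between-slide difference itself, so slide and BP could not be separated for it. The adjusted p was 0.0568 for Serpinb10, 0.073 for Rcbtb2, 0.0807 for Msr1, 0.087 for Arl4c, 0.112 for Il6st and 0.181 for Adgre1.

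The called genes were also compared within slides. On the shared slide BP replicate 3 was above the oil mean in all 12 called genes with a value, by 0.59 (Rcbtb2) or more, and most for Spint1. The same arrays gave the calls, so this describes the called genes and is no separate check of them. On the other slide BP replicates 1 and 2 were both above both Cyp1b1-null oil arrays in 12 of 13, and Adgre1 was the exception. These BP arrays gave the calls too, and the share over all genes was not counted, so this is no separate check either. The difference in means there ran from 0.10 (Adgre1) to 3.88 (Spint1), and includes the difference in genotype between the arrays.

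When slide was left out of the model 33 genes were called (0.15% of those tested), 32 higher and 1 lower. They held the 13 above and 20 others. The others included the lysosomal protease gene Ctsl (0.87 ± 0.16, limma adjusted p = 0.0613 with the slide block), the p53 target Phlda3 (1.04 ± 0.21, adjusted p = 0.106), F10, which encodes coagulation factor X (0.74, adjusted p = 0.143), the cytokine receptor subunit Csf2rb (0.67, adjusted p = 0.169), the axonemal dynein gene Dnah2 (1.40, adjusted p = 0.144) and Prdm1, which encodes the transcription factor Blimp-1 (0.71, adjusted p = 0.29). The lower gene was C1qtnf12, at -0.62 (adjusted p = 0.62). Phlda3 was at 0.32, 0.17 and -0.07 after oil and 1.17, 1.67 and 1.11 after BP, with 0.97 on the shared slide and 1.11 against Cyp1b1-null oil on the other. Its groups did not overlap.

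Responses to DNA damage and stress had no called member. With 0.0591% of all genes called, most lists of this size would hold 0, so these counts do not show that a response was absent. Of 30 p53 target genes 29 were tested, with 0 called in either direction and a median of 0.11, and 22 were above 0. All BP arrays lay above all oil arrays in 8 of the 29, against 8.98% of all genes. They lay below in 0, against 5.89%. The largest value was that of Phlda3, at 1.04 (limma adjusted p = 0.106). The cell cycle inhibitor Cdkn1a gave 0.25, the cyclin gene Ccng1 0.34, the pro-apoptotic genes Bax and Bbc3 0.06 and 0.36, and the repair gene Ddb2 0.39 (limma adjusted p = 0.999 for each). Of 20 NRF2 targets, 18 integrated stress response genes, 15 heat shock chaperones and 30 interferon-stimulated genes, all tested, 0 were called. Their medians were -0.01, 0.02, -0.01 and 0.11. The 23 inflammatory cytokine and NF-kB genes (median 0.06) and the 22 immediate early genes (0.09) had 0 called too. The p53 and interferon medians were 0.126 and 0.111 on the shared slide and 0.165 and 0.15 between slides. The NRF2, integrated stress and heat shock medians differed more, at 0.044, 0.079 and -0.099 on the shared slide and -0.235, -0.268 and 0.267 between slides. For the cytokine and immediate early lists the slides disagreed too, with -0.06 and 0.05 on the shared slide and 0.46 and 0.64 between slides. Against the Cyp1b1-null oil arrays on their own slide, BP replicates 1 and 2 gave 0.57 and 0.40. Genes of DNA replication and S phase (26, median -0.05), of G2 and mitosis (26, -0.05), ribosomal proteins (37, 0.11), sterol and fatty acid synthesis (24, -0.02) and the clock (17, 0.08) had 0 called members as well. The slides differed here most for ribosomal proteins (0.249 on the shared slide, -0.041 between slides) and G2 and mitosis (-0.005 and -0.295).

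**Figure D4:**
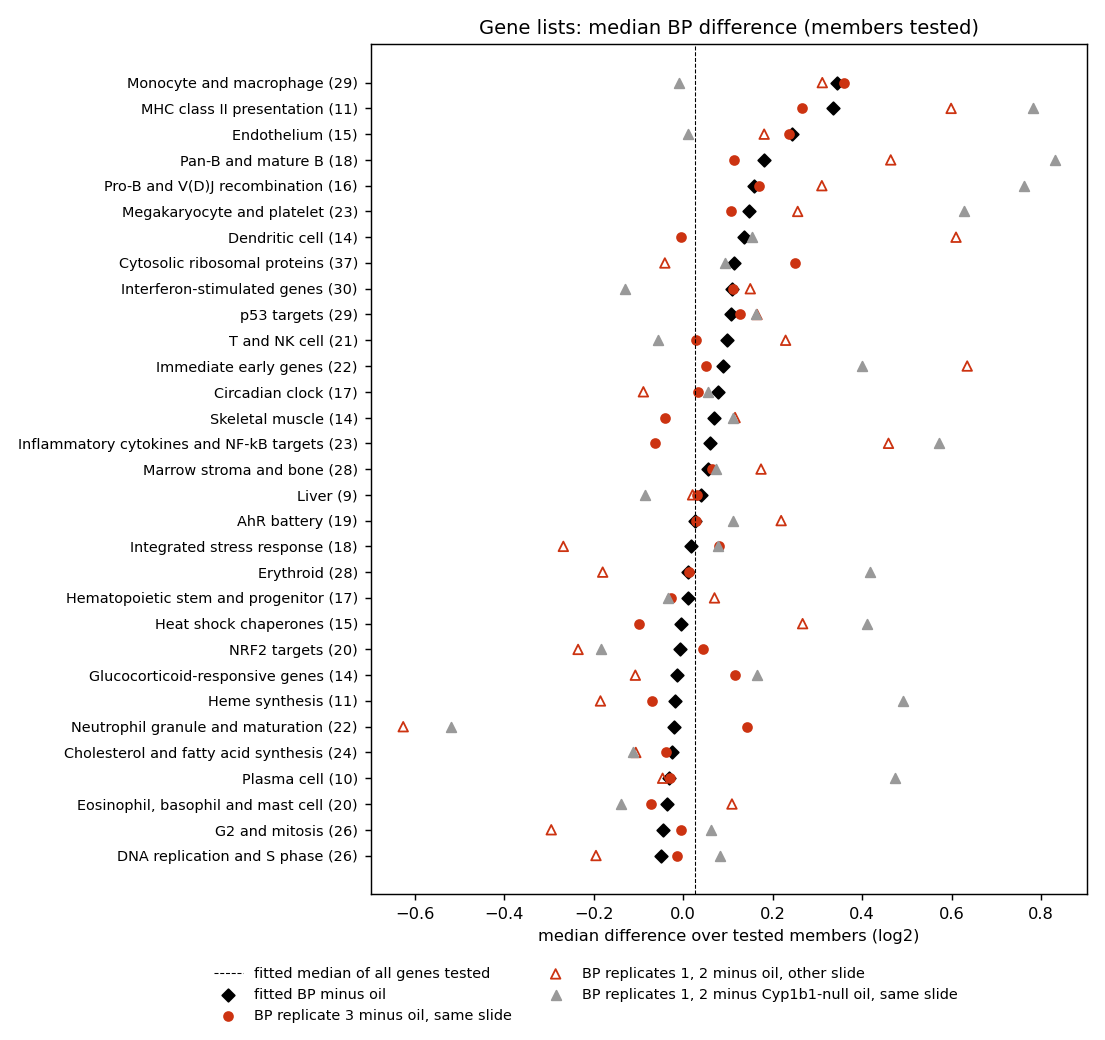
Median difference in log2 (horizontal axis) over the tested members of each gene list, whose number is in brackets. Black diamonds are the fitted BP effect, red circles BP replicate 3 minus oil on the shared slide, open triangles BP replicates 1 and 2 minus oil on another slide, grey triangles the same BP arrays minus Cyp1b1-null oil on their slide, and the dashed line is the fitted median of all genes. The monocyte and macrophage list has the highest fitted median, 0.343, while its grey triangle lies at -0.01. The MHC class II list is close to it at 0.335, with its grey triangle at 0.78.

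Cell type lists other than monocytes and macrophages had 0 called members, which for lists of this size is near the share over all genes (0.0591%). MHC class II presentation genes lay above 0 in 11 of 11 with a median of 0.34, and included the invariant chain gene Cd74 at 0.24, H2-Aa at 0.45 and the protease gene Ctss at 0.51 (adjusted p = 0.744, limma). Their mean log ratio was 0.09, 0.09 and -0.31 after oil and 0.45, 0.43 and 0.26 after BP. All BP arrays lay above all oil arrays in 5 of these 11 genes, against 8.98% of all genes. Their median was 0.27 on the shared slide and 0.60 between slides. Against the Cyp1b1-null oil arrays on the other slide it was 0.78. Pan-B genes were above 0 in 18 of 18 (median 0.18), and on the oil arrays their mean log ratio was itself spread from -0.19 to 0.45, across most of the range of the BP arrays (0.12 to 0.56). Megakaryocyte and platelet genes were above 0 in 23 of 23 (median 0.15), with 0.47 to 0.79 after oil and 0.69 to 1.25 after BP. Members of one cell type vary together, so such a count has few independent values behind it. Endothelial genes (15, median 0.24), pro-B genes (16, 0.16), neutrophil genes (22, -0.02), erythroid genes (28, 0.01) and stem and progenitor genes (17, 0.01) had 0 called. The near-zero median of the neutrophil genes joined unlike values, with 0.14 on the shared slide, -0.63 between slides and -0.52 against the Cyp1b1-null oil arrays on the other slide. Markers of tissue that can be carried over with marrow were read as well. Liver genes were well above background on all 6 arrays in 6 of 18 on the array, and their mean log ratio was between -0.13 and 0.05 after oil and between -0.05 and 0.16 after BP. Skeletal muscle genes had 0 of 14 called, but their mean log ratio, at -0.10 to -0.05 after oil, was 0.44 and 0.24 on BP replicates 1 and 2 and -0.09 on BP replicate 3. Their summed Cy3 signal was 4198 to 4992 after oil and 10064, 5229 and 4303 after BP, so BP replicate 1 stood above the others. The part of muscle in the called genes was not tested. Genes next to Cyp1a1 on chromosome 9, which can carry strain differences around a deleted gene in both groups alike, had 0 of 20 called and a median of 0.03. Markers of marrow were present, since neutrophil (22 of 22 tested), erythroid (28 of 28) and megakaryocyte (23 of 23) genes were well above background on all 6 arrays.

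The response of the 13 genes was then placed beside double-null marrow, which received the same agent at the same dose and time and shares no arrays with the comparison. The double-null oil group was 1 array, so its own spread was not measured, limma assumed that it varied like the other groups, and the p-values below have no replicate check on that side. There 12 of the 13 were higher after BP and 11 were called, against 0.732% of genes called higher in that comparison. Spint1 rose by 3.70 (limma adjusted p = 1.2e-04), from -0.64 on the oil array to 3.25 and 2.87 on the BP arrays. Ahrr rose by 2.77 (adjusted p = 3.05e-04, limma) from -0.06 to 2.87 and 2.55, and Scin by 2.27 (adjusted p = 0.00108, limma) from 0.07 to 2.36 and 2.31. Gpnmb rose by 1.61 (adjusted p = 0.0149, limma), although its BP arrays were apart at 2.08 and 0.83. Msr1, Dpep2, Sulf2, Serpinb10, Il6st, Arl4c and Rcbtb2 were called as well. Adgre1 stood at 0.54 (adjusted p = 0.097, limma) and was not called. Tph1 did not move with the others there, at 0.25 after oil and 0.08 and 0.32 after BP (-0.05, adjusted p = 0.966). The difference between genotypes in Tph1 was 1.66 (95% interval 0.90 to 2.43, limma adjusted p = 0.0825). None of the 13 differed between the genotypes at the threshold. For Spint1 the interval of the difference ran from -1.77 to 0.69 and for Ahrr from -1.39 to 0.61, so these arrays leave room for differences of that size.

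**Figure D5:**
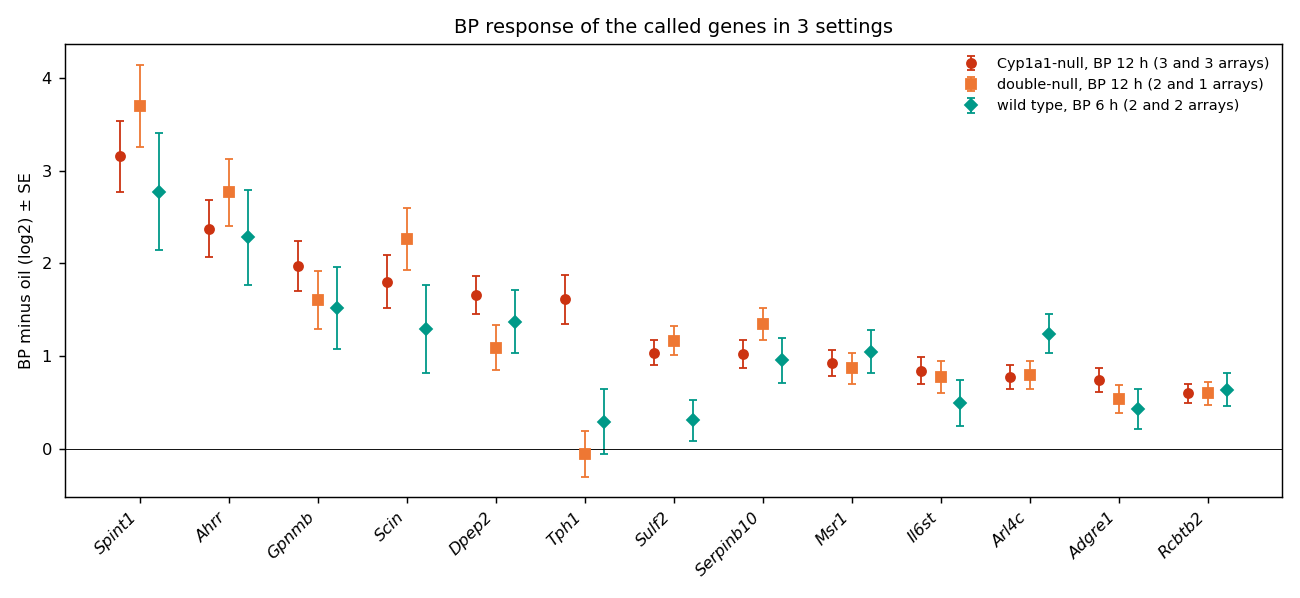
BP minus oil (vertical axis, log2, with standard errors from the model) of the 13 called genes in Cyp1a1-null marrow at 12 h (circles), double-null marrow at 12 h (squares) and wild-type marrow at 6 h (diamonds), with the number of BP and oil arrays in brackets. The symbols of a gene lie near each other for most genes, and Tph1 is near 0 in double-null marrow (-0.05).

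In wild-type marrow the available BP arrays were taken at 6 h, so genotype and time differ together. These BP arrays shared a slide that held no wild-type oil array, so this response also lies wholly between slides. All 13 genes were higher after BP there, by 0.29 (Tph1) to 2.77 (Spint1), and 0 of them were called, against 2 genes called among all tested (0.00909%). Ahrr was at 2.60 and 2.72 on the BP arrays against 0.16 and 0.78 after oil, a difference of 2.28. Spint1 was at 3.05 and 3.07 against -0.05 and 0.85. On the wild-type oil array left out of the fit Ahrr was at 1.43 and Spint1 at 2.67. Arl4c differed by 1.24 (limma adjusted p = 0.0898) and Sulf2 by 0.31 (0.829). The difference between the responses was called for 0 of the 13. For Sulf2 it was 0.73, with an unadjusted 95% interval of 0.18 to 1.27, and for Arl4c -0.47 with an interval of -0.99 to 0.06.

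Over all genes, the difference between the responses of Cyp1a1-null and double-null marrow passed limma's threshold for 47 of 21997 (0.214%), with the BP effect higher in Cyp1a1-null for 11 and lower for 36. In the genes with the smallest adjusted p the Cyp1a1-null arrays hardly moved, and the 1 double-null oil array stood apart. Coro1c, an actin-binding protein gene, was between -0.13 and 0.20 on the 6 Cyp1a1-null arrays and at 0.06 and 0.16 on the double-null BP arrays, but at -3.72 on the double-null oil array. Snap25, which encodes a SNARE protein of vesicle fusion, lay between -0.34 and 0.21 on the 6 arrays, at -0.15 and 0.09 on the double-null BP arrays and at 1.03 on that oil array. These calls thus rest on that 1 array, and a difference in the BP response cannot be told apart from a departure of the array.

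A single gene of 22008 (0.00454%) differed from the wild-type response at 6 h. Tnf, the gene of the cytokine tumour necrosis factor, was high on all Cyp1a1-null arrays, at 1.88, 1.69 and 1.79 after oil and 1.42, 1.30 and 1.35 after BP. On the 2 wild-type oil arrays in the fit Tnf was at 0.35 and 0.39. At 6 h after BP it was at 2.90 and 2.71 in wild-type marrow, a rise of 2.41 (limma adjusted p = 0.0307). The wild-type oil array left out of the fit stood at 2.90 as well. No wild-type oil array shared a slide with the wild-type BP arrays, and the part of slide in the rise was not tested. The difference of responses was -2.85 ± 0.41 (adjusted p = 0.0355, limma). The call was lost without BP replicate 2 and without any 1 of the oil replicates, each of which left 0 genes, while 320 were called without BP replicate 3.

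The authors' deposited table gave log2 differences for the same comparison, with no values per sample. In it Spint1 was at 3.65, Ahrr at 3.38, Gpnmb at 3.18, Dpep2 at 2.19 and Scin at 1.74. All 13 genes were above 0 in the authors' deposited table, the lowest being Rcbtb2 at 0.57. Across 41174 probes the authors' column correlated at r = 0.986 with differences from the processed signals and at 0.814 with those used here, and its median was -0.06. Scale and direction were taken from this comparison, and how the column was centred is not given.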

How the data were processed

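Per the labels, total RNA of bone marrow was hybridised to Agilent 2-colour mouse arrays, with the sample in Cy3 and a pooled wild-type oil reference in Cy5. For each array the authors deposited intensity values, as the spot mean and the background median of each channel, and a LogRatio on the log10 scale, per the file headers written by Feature Extraction 9.1.3.1 or, for the 4 arrays of the slide with the oil arrays, 10.7.3.1. The authors' deposited table holds log2 differences between groups. The submitters' processing notes name limma, with the version not given in the sources used here.

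Intensities were background-corrected (normexp, offset 50) and normalized within each array by loess (R 4.3.3, limma 3.58.1, statmod 1.5.0 and the package data.table, version 1.17.8), and control and outlier spots were left out. Of 41174 probes, 27069 were named through RefSeq by accession, 5432 by symbol and 972 by synonym, and 7701 kept the name that the file gives. A gene was its brightest probe, and was tested if well above background in Cy3 on at least 3 of the 6 Cyp1a1-null arrays (22008 of 27618 genes).

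A model with a mean for each of 10 groups and slide as a random block was fitted to 23 arrays. Wild-type oil replicate 1 was left out because it was known to stand apart. P values were adjusted by the method of Benjamini and Hochberg over all genes tested, and a gene was called under 0.05. The script was tested on simulated data. The text names Cyp1a1, Cyp1b1, called genes whose arrays do not overlap (up to 12 each way), Tph1, which has 1 array without a value, up to 4 called members of each list, and in each difference between responses the 4 with the smallest adjusted p each way. Genes beyond this rule were chosen after their values were seen. The groups, members, gene lists and rule were chosen with earlier results of these data known. Alternatives covered slide, arrays in the fit, replicate block, background, normalization, channel, filter, probes, prior and leaving out each array.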

Additional observations from a re-analysis of the deposited data

Results flagged for a closer look

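The test of the difference between the BP responses of Cyp1a1-null and double-null marrow (limma, slide as a random block) passed its threshold for 47 genes, and rests on 1 double-null oil array. The 4 with the smallest adjusted p in each direction, as Cyp1a1-null minus double-null response on the log2 scale, were as follows. The response was higher in Cyp1a1-null for Snap25 (1.40), the unnamed transcript TC1610785 (1.07), Syce1, a gene of the synaptonemal complex (1.02), and Atp6v0e2, a subunit gene of the vacuolar proton pump (0.97). It was lower for Coro1c (-3.85), 1700025H01Rik (-3.30), the unnamed probe A_52_P1013105 (-2.91) and the imprinted gene Peg3 (-2.42). In all 8 the response of Cyp1a1-null marrow lay between -0.13 and 0.35, none of it called.

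The BP response differed from that of wild-type marrow at 6 h in 1 gene, Tnf (-2.85), where genotype and time differ together. The wild-type BP and oil arrays also lay on different slides.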

How the results depend on the processing

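All 13 called genes stayed above 0 in each of the alternatives that gave a value, with 177 values on the same side of the threshold and 95 no longer past it. Calls were kept in 20 of 21 alternatives by Spint1, 19 by Gpnmb, 18 by Dpep2, 17 by Ahrr and 16 by Scin, and in 8 by Adgre1 and Rcbtb2. Against 13 calls, limma gave 33 without a slide block, 4 within the shared slide, 4 with wild-type oil replicate 1 (24 arrays), 1 with the 2 Cyp1a1-null groups alone, 5 without background subtraction, 3 with processed signals, 5 with Cy3 alone, 4 with a trended robust prior, and 8 to 3274 without 1 array, the highest without BP replicate 3. The mean of probes gave 12 calls, 10 higher and 2 lower. Leaving out BP replicate 2 or oil replicate 2 gave 1 lower call each, and leaving out BP replicate 3 gave 567. Cy3 alone moved the median of all genes to 0.13. The replicate block gave 6 calls for the BP response, 40 for the difference from double-null and 0 for that from wild type. Same-numbered arrays had deviations that correlated at 0.165, -0.138 and 0.173, and not every array correlated best with its own number. The BP replicates lay on 2 slides, so these values cannot show whether the numbers pair the samples.

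Against 47 genes, the difference from double-null marrow was called for 17 without background subtraction, 15 with processed signals, 0 with Cy3 alone (168 at an unadjusted p under 0.05), 101 without a filter, 12 with a filter on all 6 arrays, 77 with the mean of probes, and 44 to 1927 without 1 array. Atp6v0e2 turned to -0.008 without background subtraction, -0.56 with processed signals and -0.031 with Cy3 alone. With Cy3 alone 1700025H01Rik turned to 0.033 and A_52_P1013105 to 0.59. Against 1 gene, the difference from wild type was called for 5 without a slide block, 2 with Cy3 alone, and 0 with wild-type oil replicate 1, without background subtraction, with processed signals, with the filter on all 6 arrays or with the trended prior, and for 0 to 320 without 1 array. With slide as a fixed term it could not be estimated and was not run. The causes of these changes were not tested.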
